A study of Mus musculus with 10 samples.

Results

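Chromosome 8 was followed through 8 mouse ovarian tumors by whole genome sequencing at low depth. All bins of chromosome 8 were taken, 2997 of 59640 bins in the tables (5.03%). The chromosome was selected on the measured copy ratios themselves, because 1 tumor had gained and lost stretches side by side on it. The copy ratios that chose it are therefore given as a description. Each bin covers a gene or a piece of one, with a median length of 18672 bp, and holds a log2 copy ratio, which is 0 at the reference level, positive where DNA was gained and negative where it was lost. The bins start at base 3122061, end at base 129234406 and cover 52.6 Mb in the mm10 (GRCm38) build, so stretches between genes are not seen.

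Tumors had been started in the living C57BL/6 mouse, by electroporating fallopian tube epithelium with plasmids for Cas9, guide RNA and Cre. The labels give 2 features of each tumor. In 5 tumors Lkb1 was deleted and in 3 it was intact. Of the Lkb1-deleted tumors, 2 were PAX8-positive (tumors 1 and 4) and 3 were PAX8-negative (tumors 2, 3 and 5). Of the Lkb1-intact tumors, 2 were PAX8-positive (tumors 2 and 3) and 1 was PAX8-negative (tumor 1). The tumor numbers only name them. Titles of some tumors share their last digits, whose meaning is not stated. The other targets of the guides, the age of the mice and the promoter that drives Cre are not stated in the labels. Nothing in the labels says that all tumors came from separate mice, and then p-values measure only the spread between these samples. DNA came from fixed, embedded tissue, which holds normal cells as well, so a change in few cells and a smaller change in all cells cannot be told apart. A library of ascites cells, the fluid that gathers in the abdomen, was made as single-cell RNA from the mouse whose label number Lkb1-deleted tumor 1 carries.

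Copy number change over long stretches of chromosomes is known from high-grade serous ovarian carcinoma, which can start in the fallopian tube. A deletion lowers and a gain raises the dose of every gene in the stretch together, whichever of them matters to the tumor. PAX8 is a transcription factor that marks the secretory cells of the tube, and Lkb1 (Stk11) is a kinase that switches on AMPK. Mouse chromosome 8 carries Fat1, a giant cadherin, the E-cadherin gene Cdh1 with a row of other cadherins, the deubiquitinase Cyld, the metallothioneins, which bind metal ions, and clusters of defensins, which are antimicrobial peptides.

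The positions of the clearest steps in copy ratio are shown by the start regions of the genes beside them, which name the places on the chromosome near each change of state. The stretches come from RefSeq (GRCm38.p6), 5' to 3' on the gene's own strand, with the 50 bases before the listed start in lower case and the first 50 bases from that start in capitals. Of the 5 genes looked up, 4 matched, and Cntnap4 is named only. Adam34 (minus strand, chr8:43665511-43665610) starts 44.5 kb before the end of the last gained bin of Lkb1-deleted tumor 1. Fat1 (plus strand, chr8:44950158-44950257) starts 14.8 kb past the start of its first lost bin, and the table's start for Fat1 is 17.1 kb inside the gene. Gnpat (plus strand, chr8:124862983-124863082) starts 9.32 kb before the place where the loss of that tumor ends, and it starts 4 bp from the start of 2810004N23Rik on the other strand. Glg1 (minus strand, chr8:111259161-111259260) starts 69.9 kb inside the short, higher gain of Lkb1-intact tumor 3.
Adam34: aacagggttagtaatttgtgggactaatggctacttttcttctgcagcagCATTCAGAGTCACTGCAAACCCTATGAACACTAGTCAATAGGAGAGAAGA
Fat1: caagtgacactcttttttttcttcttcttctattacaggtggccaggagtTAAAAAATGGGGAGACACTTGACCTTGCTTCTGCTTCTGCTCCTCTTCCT
Gnpat: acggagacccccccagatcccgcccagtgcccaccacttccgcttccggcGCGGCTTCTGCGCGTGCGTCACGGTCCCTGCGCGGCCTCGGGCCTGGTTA
Glg1: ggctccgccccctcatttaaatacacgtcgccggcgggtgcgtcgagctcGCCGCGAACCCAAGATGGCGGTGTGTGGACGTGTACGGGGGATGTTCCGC

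Lkb1-deleted tumor 1 held 3 levels on chromosome 8, a gain, a long loss and a second gain at the far end. A segment is a run of neighbouring bins given 1 mean by a least squares fit, called gained above 0.2 and lost below -0.2. The first segment ran from base 3122061 to base 43710049 and was gained, with a mean log2 copy ratio of 0.27 ± 0.010 (SE over 886 bins). The second ran from base 44935447 to base 124872353, a length of 79.9 Mb with 721 protein-coding genes, and was lost at -0.60 ± 0.0068 (SE over 1985 bins). The third, the last 4.36 Mb, was gained at 0.37 ± 0.020 (SE over 123 bins). Neighbouring bins share their library and reference, so these errors are of bins and not of mice.

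**Figure D1:**
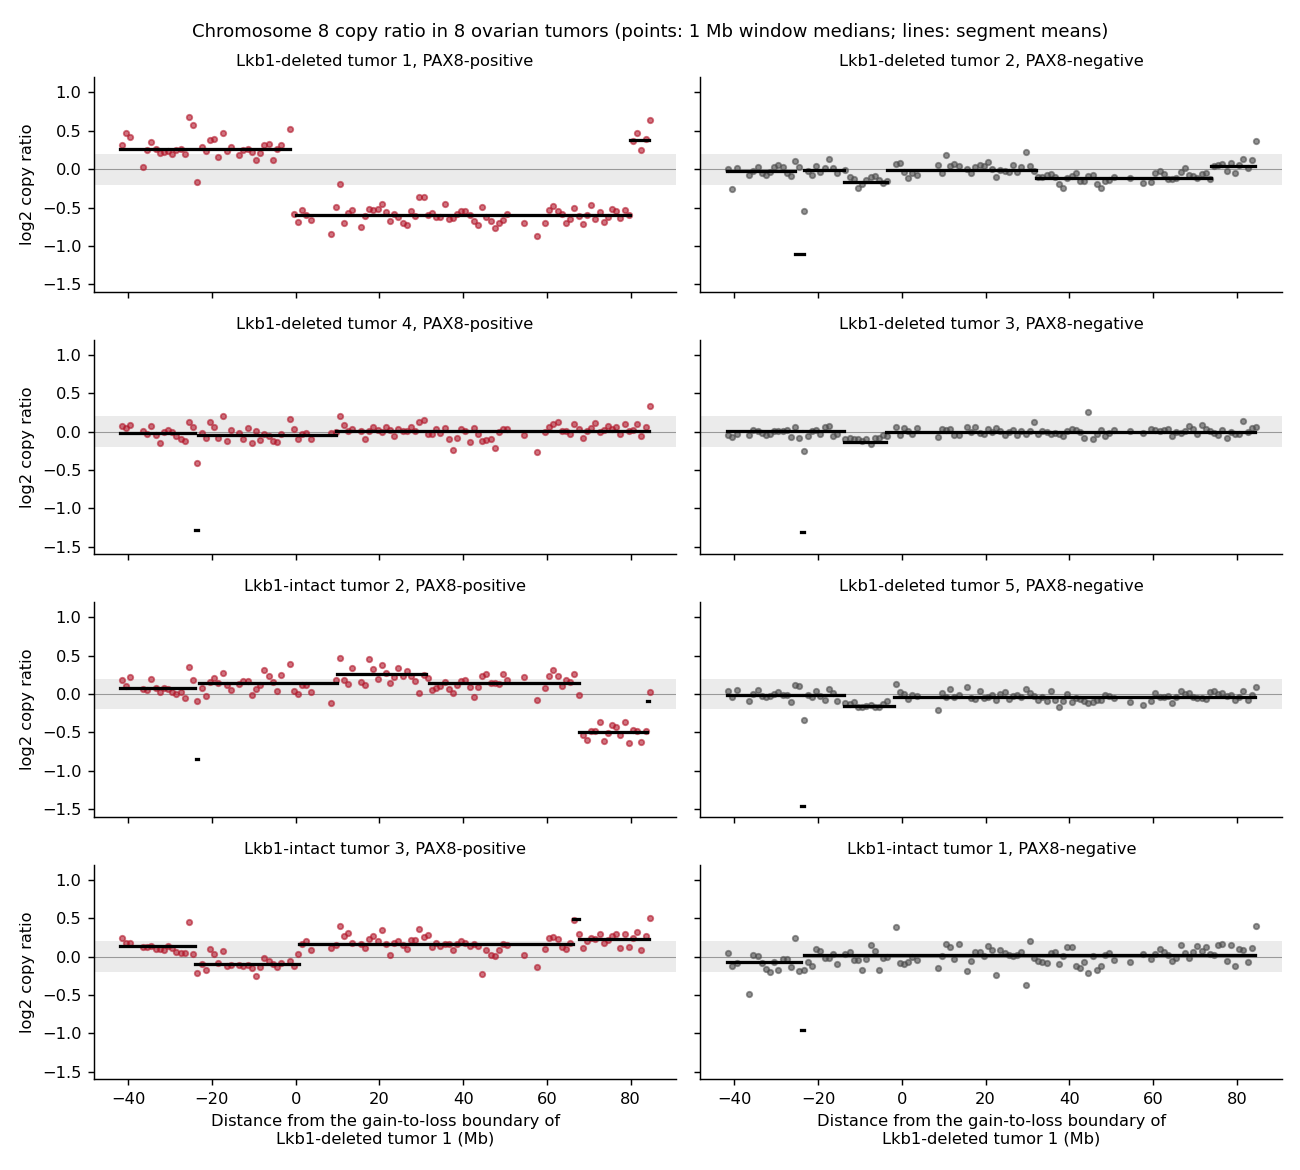
Copy ratio along chromosome 8. Each panel is 1 tumor, with PAX8-positive tumors on the left and PAX8-negative tumors on the right. Points are medians of bins in 1 Mb windows (y axis, log2 copy ratio), lines are segment means, the band spans -0.2 to 0.2, and the x axis is the distance in Mb from the gain-to-loss boundary of Lkb1-deleted tumor 1. Lkb1-deleted tumor 1 steps from its gain at 0.27 to its loss at -0.60, and Lkb1-intact tumor 2 has a loss of -0.50 near the far end.

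The step between gain and loss in Lkb1-deleted tumor 1 was abrupt. All 20 bins before it were above 0, with values between 0.06 and 0.97, and all 20 bins after it were below 0, with values between -1.10 and -0.14. The step was -0.86 on the log2 scale. It lies between Adam34, a gene of the ADAM metalloprotease family, and Fat1, in 1225397 bp that hold no bin, so its place within that gap is not seen. The step back up was 0.97. It falls inside the bins shared by Gnpat, an enzyme of ether lipid synthesis in peroxisomes, and 2810004N23Rik. In that tumor the 3 bins of Gnpat had log2 copy ratios of -0.28, -0.46 and 0.46 in order along the chromosome, and the change of state falls between the second and the third. The third of these bins was also above 0.3 in Lkb1-deleted tumors 4 and 2 and in Lkb1-intact tumor 1, with 0.38, 0.40 and 0.38, so the exact bin of the step is less sure than the levels on its sides. All 20 bins before this step were below 0, against 2 of the 20 bins after it.

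**Figure D2:**
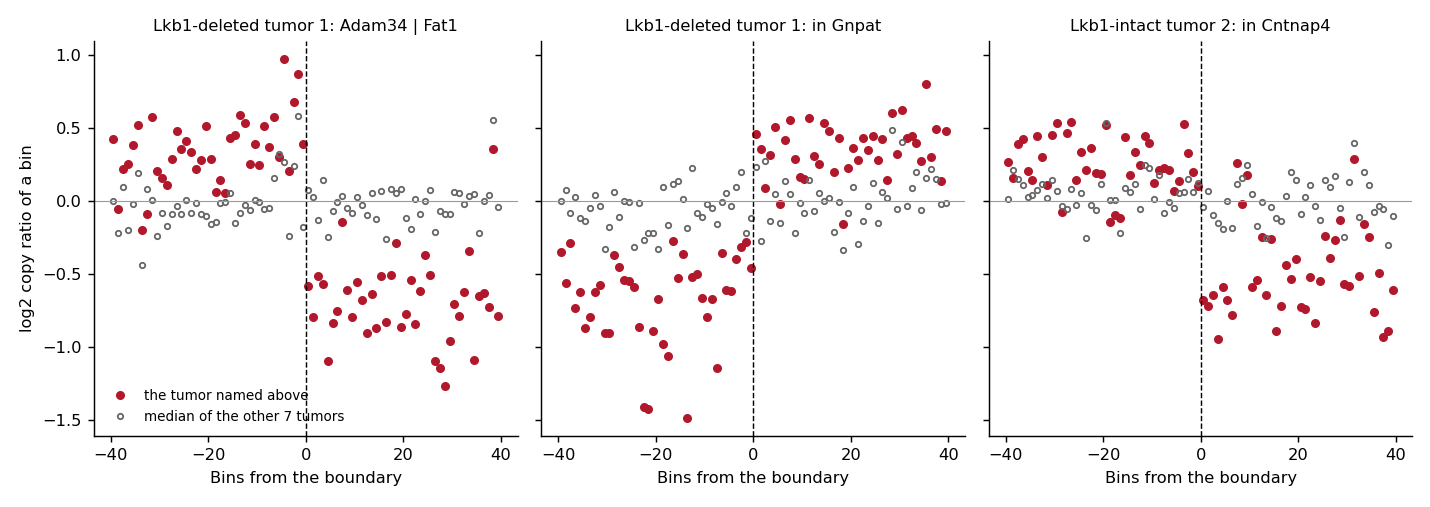
Single bins around 3 steps in copy ratio. The x axis counts bins from the step, 40 on each side, and the y axis is the log2 copy ratio of a bin. Filled points are the tumor named above each panel and open points the median of the other 7 tumors. The segment mean of the named tumor steps by -0.86, 0.97 and -0.64 from left to right.

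The read depth behind the ratios moved in the same way. Over the lost segment of Lkb1-deleted tumor 1 the median depth was 0.805 reads per base, against 1.50 over its first segment, a ratio of 0.536. In the other 7 tumors the same ratio lay between 0.967 and 1.11. Against its last segment the ratio was 0.505 in Lkb1-deleted tumor 1 and 1.41 in Lkb1-intact tumor 2, with the other 6 tumors between 0.905 and 0.964. The low ratio was thus seen in 1 tumor, and the high one belongs to the tumor with a loss at the far end.

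The 3 intervals of Lkb1-deleted tumor 1 had other levels in the other tumors. Over the first interval the means were -0.060 in Lkb1-deleted tumor 4, 0.11 in Lkb1-intact tumor 2 and 0.00011 in Lkb1-intact tumor 3, and between -0.088 and -0.048 in the 4 PAX8-negative tumors. Over the second interval they were 0.0058, 0.025 and 0.18 in those 3 PAX8-positive tumors, and between -0.061 and 0.016 in the PAX8-negative tumors. Over the third interval they were 0.059, -0.46 and 0.25, and between -0.0086 and 0.082 in the PAX8-negative tumors. None of the other 7 tumors had a mean below -0.2 over the lost interval, and Lkb1-intact tumor 3 lay above 0 where Lkb1-deleted tumor 1 was lost.

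Lkb1-intact tumor 2 had a separate loss. It ran from base 112662005 to base 128771044 with a mean log2 copy ratio of -0.50 ± 0.012 (SE over 558 bins), and it holds 148 protein-coding genes. It starts inside Cntnap4, which encodes a contactin-associated protein of neurons. The last bin of Cntnap4 before the step had 0.10 and the first bin after it -0.68, and 18 of the 20 bins after the step were below 0, against 3 of the 20 bins before it. The median depth over the loss was 0.606 times that of the segment before it in this tumor, and 0.974 to 1.03 times in the other 7. The same tumor had a gain of 0.26 ± 0.012 (SE over 534 bins) from base 54739681 to base 75984503. The steps at its ends were only 0.12 and -0.12. Over the bins of this gain Lkb1-intact tumor 3 had 0.20, Lkb1-deleted tumor 1 had -0.57, and the remaining tumors had -0.027 to 0.048. Every tumor was higher there than over the next segment of Lkb1-intact tumor 2, so a higher level there was not particular to it. The other long segments of Lkb1-intact tumor 2 had means between 0.085 and 0.15, under the line for a gain. Lkb1-deleted tumor 1 was lost at -0.43 over the same bins as the loss of Lkb1-intact tumor 2, and the other 6 tumors had means between -0.015 and 0.22 there.

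Lkb1-intact tumor 3 had gains toward the far end of the chromosome. A short segment of 36 bins from Glg1, which encodes a Golgi glycoprotein, into Cntnap4 had a mean log2 copy ratio of 0.49 ± 0.027 (SE over bins). Over those bins Lkb1-deleted tumor 1 had -0.49 and Lkb1-intact tumor 2 had 0.25. Lkb1-intact tumor 1 had 0.14, Lkb1-deleted tumor 4 had 0.12, and Lkb1-deleted tumors 2, 3 and 5 had -0.020 to 0.038. Every tumor was higher there than over the long segment before it, so a rise there was not particular to Lkb1-intact tumor 3. From base 112588435 to the end the mean was 0.23 ± 0.0097 (SE over 584 bins), where Lkb1-deleted tumor 1 had -0.40 and Lkb1-intact tumor 2 had -0.48. The long middle of the chromosome had 0.16, and the stretch from base 20900606 to base 45790245 had -0.10. At the end of that stretch, inside Sorbs2, which encodes an adaptor of the cytoskeleton, the level stepped up by 0.26. Both this tumor's step down within its gain and the start of the loss in Lkb1-intact tumor 2 lie in Cntnap4, at bases 112588435 and 112662005. The bins in which the step of Lkb1-intact tumor 3 could lie with nearly the same fit run from base 111966908 to base 112680398, and those of Lkb1-intact tumor 2 from base 112643613 to base 112680398.

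The remaining 5 tumors stayed near 0. Lkb1-deleted tumor 4, the fourth PAX8-positive tumor, had long segments at -0.016, -0.048 and 0.014. Lkb1-deleted tumors 2, 3 and 5 shared a shallow dip, with segment means of -0.17, -0.14 and -0.15, that started at bases 31243136, 31111820 and 31111820 and ended at bases 41357485, 41215156 and 43141486. It did not pass -0.2 in any of them. From base 33782643 to base 43710049 these 3 had means of -0.17, -0.14 and -0.16. Lkb1-intact tumor 3 had -0.11 there and Lkb1-deleted tumor 4 had -0.093, so low values were not particular to the 3. Lkb1-intact tumors 1 and 2 and Lkb1-deleted tumor 1 had 0.0039, 0.18 and 0.27. Lkb1-deleted tumor 2 had a second shallow dip of -0.12 from base 76937838 to base 118748549, which ends inside Cdh13. With nearly the same fit this dip could start between bases 75929074 and 77033830. The gain of Lkb1-intact tumor 2 could end in the same bins, so the step was not particular to 1 tumor. In Lkb1-intact tumor 1 the 2 long segments had means of -0.068 and 0.017.

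In 6 tumors a short segment over the alpha-defensins was called lost, so these calls recur in tumors with and without other changes. They were Lkb1-deleted tumors 4, 2, 3 and 5 and Lkb1-intact tumors 2 and 1. From base 21025545 to base 21735471 the 21 bins have a median length of 970 bp, against 18672 bp for bins outside the defensin genes. Their median log2 copy ratios were -0.40, -1.18, -0.75 and -0.61 in the PAX8-positive tumors (Lkb1-deleted tumors 1 and 4, then Lkb1-intact tumors 2 and 3), and -1.46, -1.27, -1.31 and -0.68 in the PAX8-negative tumors (Lkb1-deleted tumors 2, 3 and 5, then Lkb1-intact tumor 1). The 2 groups overlap. The median depth of these bins was 0.422 to 0.909 reads per base. The 50 bins of chromosome 8 under 2000 bp had an SD of 0.933 to 1.58 within a tumor, against 0.174 to 0.501 for longer bins, where the steps themselves add to the spread, so the value of a short gene with 1 bin carries a wide error. The part of bin length and depth in the defensin values was not tested.

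Counted in 1 Mb windows, a window being altered when its median is above 0.2 or below -0.2, chromosome 8 was altered over 92.0% of its 112 windows in Lkb1-deleted tumor 1, against 45.9% over all windows of the genome in that tumor. The share was 5.36% on chromosome 8 against 48.1% over the genome in Lkb1-deleted tumor 4. It was 40.2% against 47.7% in Lkb1-intact tumor 2, and 32.1% against 34.9% in Lkb1-intact tumor 3. In the PAX8-negative tumors it was 6.25% against 13.2% (Lkb1-deleted tumor 2), 1.79% against 3.79% (Lkb1-deleted tumor 3), 1.79% against 12.1% (Lkb1-deleted tumor 5) and 7.14% against 9.71% (Lkb1-intact tumor 1). Lkb1-deleted tumor 4 thus had the highest altered share over the genome and a chromosome 8 that was nearly flat. Because the chromosome was chosen on these ratios, nothing is read from its share in Lkb1-deleted tumor 1.

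Gain and loss were split differently in the 3 PAX8-positive tumors with long changes. Lkb1-deleted tumor 1 was gained over 30.4% and lost over 61.6% of chromosome 8, with 15.6% and 30.3% over the genome. Lkb1-intact tumor 2 was gained over 25.9% and lost over 14.3%, with 15.7% and 32.0% over the genome. Lkb1-intact tumor 3 was gained over 29.5% and lost over 2.68%, with 18.6% and 16.3% over the genome. Taking the smaller of the gained and the lost share as a measure of mixing, chromosome 8 of Lkb1-deleted tumor 1 stood in place 2 of 160 pairs of a chromosome and a tumor, behind chromosome 16 of Lkb1-intact tumor 2 with 31.8% gained and 38.8% lost. The chromosome was chosen for this mixing in that tumor, so its place restates the choice.

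**Figure D3:**
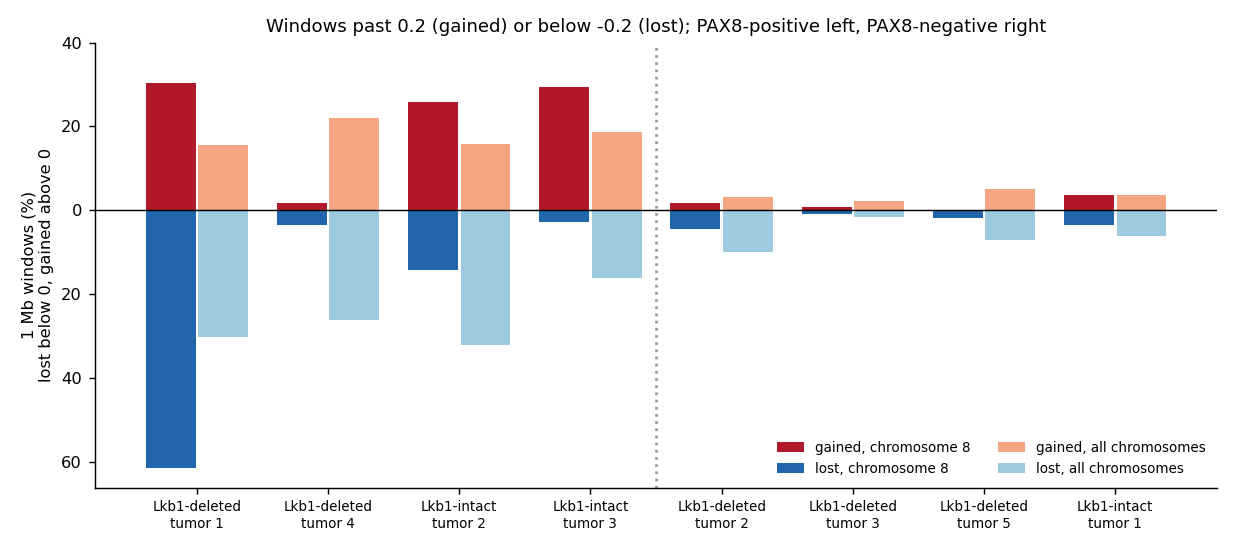
Share of 1 Mb windows gained (above 0) and lost (below 0) in each tumor, in percent of the windows of chromosome 8 (dark) and of all chromosomes (light). PAX8-positive tumors are left of the dotted line. Lkb1-deleted tumor 1 reaches 30.4% gained and 61.6% lost on chromosome 8, and Lkb1-deleted tumor 4 has 1.79% and 3.57%.

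The highest and lowest windows of at least 5 bins show where single megabases stood out. In Lkb1-deleted tumor 1 the lowest was the window around Cdh11, which encodes an adhesion protein of mesenchymal cells, at -0.88, and the highest was the window around Defb7 at 0.68. The Cdh11 window rests on 8 bins and had -0.27 to 0.028 in the other tumors. The Defb7 window rests on 12 bins and was also above 0.2 in Lkb1-intact tumors 1, 2 and 3, at 0.25, 0.35 and 0.45. In Lkb1-intact tumor 2 the lowest was the window around Cog2, a gene of Golgi transport, at -0.64, and the highest, around Gm51598, had 0.48. The Cog2 window had -0.60 in Lkb1-deleted tumor 1. The Gm51598 window rests on 8 bins and had 0.40 in Lkb1-intact tumor 3. The last window of the chromosome, nearest Gm32856, was the highest of 4 tumors, 0.34 in the Lkb1-deleted tumor 4, 0.50 in the intact tumor 3, 0.37 in the deleted tumor 2 and 0.40 in the intact tumor 1. It had 0.64 in Lkb1-deleted tumor 1 and 0.033 to 0.093 in the other 3. It rests on 11 bins and was high in tumors of both PAX8 groups. The lowest window of Lkb1-deleted tumors 4, 2, 3 and 5 was the one around Defa20, between -0.55 and -0.26. The lowest windows of Lkb1-intact tumors 3 and 1 were those around Eri1, at -0.26, and Nat2, at -0.23, and the highest ones of Lkb1-deleted tumors 3 and 5, around Tarbp1 and Adam26b, had only 0.14 and 0.13.

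The PAX8 comparison asks whether chromosome 8 differs between tumors with and without PAX8. The chromosome mean of PAX8-positive tumors was -0.26 (Lkb1-deleted tumor 1), -0.0031 (Lkb1-deleted tumor 4), 0.057 (Lkb1-intact tumor 2) and 0.12 (Lkb1-intact tumor 3), and that of PAX8-negative tumors was -0.045, -0.010 and -0.038 (Lkb1-deleted tumors 2, 3 and 5) and -0.0071 (Lkb1-intact tumor 1). The positive tumors lie on both sides of the negative ones. The means were -0.022 ± 0.17 and -0.025 ± 0.019 (SD, n = 4 each), a difference of 0.0027. Since the chromosome was chosen on Lkb1-deleted tumor 1, which is 1 of the PAX8-positive tumors, p-values are printed without it. Then the means were 0.058 ± 0.061 in 3 PAX8-positive and -0.025 ± 0.019 in 4 PAX8-negative tumors (SD), a difference of 0.083. Its exact two-sided permutation p was 0.0286, the smallest that 35 splits allow, and 0.19 after adjustment over 20 chromosomes. From that smallest p, 1 chromosome alone cannot reach an adjusted p under 0.05. Many of the 20 chromosomes would have to stand at it together. Not passing 0.05 was thus nearly fixed in advance, here and in the tests below, and nothing is concluded from it.

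The altered share averaged 42.4% ± 36.2 in PAX8-positive tumors and 4.24% ± 2.86 in PAX8-negative tumors (SD, n = 4 each), and only the low share of Lkb1-deleted tumor 4 overlaps the PAX8-negative range. Chromosome 8 ranked 9 of 20 chromosomes by the size of this difference. Without Lkb1-deleted tumor 1 the PAX8-positive mean was 25.9% ± 18.2 (SD, n = 3), and the difference of 21.7 percentage points had an exact permutation p of 0.0857, 0.107 after adjustment. The gained share averaged 21.9% ± 13.5 in PAX8-positive and 1.56% ± 1.52 in PAX8-negative tumors (SD, n = 4 each). Without Lkb1-deleted tumor 1 the positive mean was 19.0% ± 15.1 (exact permutation p = 0.0857, adjusted p = 0.19, n = 3 and 4). The lost share averaged 20.5% ± 27.9 in PAX8-positive and 2.68% ± 1.63 in PAX8-negative tumors (SD, n = 4 each). Without that tumor the positive mean was 6.85% ± 6.46 (exact permutation p = 0.286, adjusted p = 0.44, n = 3 and 4). None of these differences passed 0.05 after adjustment, which so few splits hardly allow.

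In 5 Mb windows, the first window of the chromosome, which ends at base 5000000, was higher in every PAX8-positive tumor. Its medians were 0.36, 0.077, 0.14 and 0.23 in PAX8-positive tumors (Lkb1-deleted tumors 1 and 4, then Lkb1-intact tumors 2 and 3) and between -0.047 and 0.036 in PAX8-negative tumors. Without Lkb1-deleted tumor 1 the means were 0.15 ± 0.077 and -0.010 ± 0.037 (SD, n = 3 and 4), with an exact permutation p of 0.0286, the smallest possible, and an adjusted p of 0.284 over 536 windows. It was 1 of 4 windows among the 26 of chromosome 8 with an unadjusted p under 0.05, where 10.1% of the windows of the genome had one, and in the other 3 Lkb1-deleted tumor 1 itself lay below every other tumor. Windows that lie in 1 long segment are not independent. The counts that follow include Lkb1-deleted tumor 1, on which the chromosome was chosen, and only describe. With all 8 tumors the count was 1 of 26, where the genome had 4.10%. Leaving out another tumor from all 8, the count was 4 without Lkb1-deleted tumor 4, 2 without Lkb1-intact tumor 3 and 0 without any 1 of the PAX8-negative tumors. No window of the genome passed 0.05 after adjustment, which would need a large part of the 536 windows at the smallest p.

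The Lkb1 comparison asks the same of tumors with and without Lkb1. The chromosome mean was -0.072 ± 0.11 in Lkb1-deleted tumors (SD, n = 5) and 0.057 ± 0.063 in Lkb1-intact tumors (SD, n = 3). Without Lkb1-deleted tumor 1 the Lkb1-deleted mean was -0.024 ± 0.020 (SD, n = 4), and the difference of -0.081 had an exact permutation p of 0.0571, 0.857 after adjustment. The altered share was 21.4% ± 39.5 where Lkb1 was deleted and 26.5% ± 17.2 where it was intact (SD, n = 5 and 3), and 4 of the 5 Lkb1-deleted tumors had 6.25% or less. Those 4 averaged 3.79% ± 2.35 (SD), and the difference without Lkb1-deleted tumor 1 was -22.7 percentage points (exact permutation p = 0.0286, adjusted p = 0.286, n = 4 and 3). With all 8 tumors the difference was -5.06, and it was -14.7 when Lkb1-intact tumor 1 was left out. The gained share was 6.96% ± 13.1 in tumors without Lkb1 and 19.6% ± 14.0 in those with it (SD, n = 5 and 3). The lost share was 14.5% ± 26.4 where Lkb1 was deleted, against 6.85% ± 6.46 where it was intact (SD, n = 5 and 3). Without Lkb1-deleted tumor 1 the Lkb1-deleted means were 1.12% ± 0.855 gained (exact permutation p = 0.0286, adjusted p = 0.286, n = 4 and 3) and 2.68% ± 1.63 lost (exact permutation p = 0.286, adjusted p = 0.714, n = 4 and 3). That tumor thus turns the direction of the lost share, and none of the differences passed 0.05 after adjustment. Without Lkb1-deleted tumor 1, Lkb1-intact tumors 2 and 3, altered over 40.2% and 32.1%, stand in the higher group by PAX8 and by Lkb1. Both comparisons thus rest largely on these 2 tumors, and the 2 labels cannot be told apart in them.

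Among the 5 Mb windows, the one from base 55000001 to base 60000000 was lower in every Lkb1-deleted tumor. Its medians were -0.51, 0.052, -0.030, 0.049 and -0.020 in Lkb1-deleted tumors 1 to 5 and 0.11, 0.32 and 0.26 in Lkb1-intact tumors 1 to 3. Without Lkb1-deleted tumor 1 the exact permutation p was 0.0286 and the adjusted p 0.613 (n = 4 and 3). It was then 1 of 5 windows among 26 with an unadjusted p under 0.05, all lower in Lkb1-deleted tumors. Of the windows of the genome 4.66% had one. Most of the 5 lie in 1 long segment of Lkb1-intact tumor 3, so they are not independent. Some margins were small. From base 105000001 to base 110000000 Lkb1-intact tumor 1 had 0.057 and Lkb1-deleted tumor 4 had 0.049. With all 8 tumors the window from base 55000001 was the only one with such a p, where the genome had 3.17%. The count was 0 when any tumor other than Lkb1-deleted tumor 1 was left out. These last counts include Lkb1-deleted tumor 1, on which the chromosome was chosen, and only describe.

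Genes were summarised by the median over the bins that overlap them. Lkb1-deleted tumor 1 had 699 of 1016 genes below -0.2 and 198 above 0.2, against 34.9% and 21.3% of all genes in its genome. Since the chromosome was chosen for this tumor's pattern, these counts only describe it. Lkb1-intact tumor 2 had 215 genes below -0.2 and 379 above 0.2, against 34.8% and 22.7% of its genome, and Lkb1-intact tumor 3 had 94 and 396, against 24.7% and 25.3%. In the other 5 tumors 145 to 252 genes of chromosome 8 were below -0.2 and 80 to 211 above 0.2. Of all genes in their genomes 32.3%, 22.2%, 12.9%, 17.4% and 24.6% were below -0.2 in Lkb1-deleted tumors 4, 2, 3 and 5 and Lkb1-intact tumor 1, and 26.6%, 14.2%, 13.0%, 12.4% and 18.6% above 0.2. The lists below were put together with earlier results of these data known, and 602 of the genes have a single bin. Over all genes of chromosome 8 the median was -0.51 in Lkb1-deleted tumor 1, 0.12 in Lkb1-intact tumor 2 and 0.14 in Lkb1-intact tumor 3. Counts of the lists below stand beside the shares of all chromosome 8 genes below -0.2 and above 0.2. These were 68.8% and 19.5% in Lkb1-deleted tumor 1, 21.2% and 37.3% in Lkb1-intact tumor 2, and 9.25% and 39.0% in Lkb1-intact tumor 3.

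The cadherins, cell adhesion proteins that bind the same kind on the next cell, all lie in the lost segment of Lkb1-deleted tumor 1. All 8 were below -0.2 there. In that segment 97.6% of the bins were below 0, so the count restates the place of these genes. Of all chromosome 8 genes in that tumor, with those of the gained segments, 68.8% were below -0.2. The cadherins lay between -0.88 (Cdh11) and -0.51 (Cdh16), with a median of -0.66. In Lkb1-intact tumor 2 their median was 0.17, with 4 above 0.2 and 2 below -0.2. The 2 low ones, Cdh13 at -0.56 and Cdh15 at -0.53, lie in that tumor's own loss. Cdh1, the epithelial cadherin, had log2 copy ratios of -0.70, 0.26, 0.24 and 0.068 in PAX8-positive tumors (Lkb1-deleted tumors 1 and 4, then Lkb1-intact tumors 2 and 3) and of -0.044, 0.049, 0.0034 and -0.052 in PAX8-negative tumors (Lkb1-deleted tumors 2, 3 and 5, then Lkb1-intact tumor 1). Only Lkb1-deleted tumor 1 was low. In Lkb1-intact tumor 3 the cadherins had a median of 0.089, with 3 above 0.2 and none below -0.2. Cdh1, Cdh13 and Cdh15 were singled out after their values were seen.

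Of 17 listed tumor suppressors, 13 were below -0.2 and 3 above 0.2 in Lkb1-deleted tumor 1, with a median of -0.62. The shares of all chromosome 8 genes in that tumor were 68.8% and 19.5%. Fat1, the first gene past the boundary, had -0.69 in that tumor and values between -0.16 and 0.067 in the other 7. Cyld, which trims ubiquitin chains and restrains NF-kappaB, had -0.82, -0.37 and -0.24 in Lkb1-deleted tumors 1, 2 and 5 and -0.20 in Lkb1-intact tumor 1, and was below -0.2 in 4 tumors. E2f4, a repressor of cell cycle genes, had -0.70 in Lkb1-deleted tumor 1. Ing1, a reader of histone marks, lies in the gained segment with 0.26 in that tumor, and its single bin ranged from -0.90 to 0.72 over the 8 tumors.

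The 16 listed oncogenes were split by the same boundary, with a median of 0.042 in Lkb1-deleted tumor 1. Of them 5 were above 0.2 and 6 below -0.2, against 19.5% and 68.8% of all chromosome 8 genes. These oncogenes, E2f4, Ing1 and the repair genes below were singled out after their values were seen, for passing 0.2 the same way in 4 tumors or 1 in any tumor. Jak3, a kinase of cytokine receptors, had -1.33 in a single bin in that tumor and values between -0.38 and 0.14 in the other 7. Maf, a transcription factor, had -0.58 in Lkb1-deleted tumor 1 and -0.54 in Lkb1-intact tumor 2, both inside a loss. Jund, a subunit of AP-1, ranged from -1.56 to 1.31 in its single bin.

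The 5 longest listed genes, each with 37 to 56 bins, carry the least error, and they were picked for that number of bins after their values were seen. Wwox, an oxidoreductase gene at a fragile site and a tumor suppressor, had a log2 copy ratio of -0.61 in Lkb1-deleted tumor 1, 0.036 in Lkb1-deleted tumor 4, -0.60 in Lkb1-intact tumor 2 and 0.19 in Lkb1-intact tumor 3, and values between -0.13 and 0.066 in the PAX8-negative tumors. It lies in the losses of both low tumors. Cdh13, a cadherin anchored in the membrane by lipid, had -0.67, 0.027, -0.56 and 0.26 in the same 4 PAX8-positive tumors and -0.079 to 0.044 in the PAX8-negative tumors. Inpp4b, a phosphatase that lowers PI3K signalling, had -0.66, -0.12, 0.042 and 0.15 in the PAX8-positive tumors and -0.16 to 0.017 in the PAX8-negative tumors. Inpp4b and Zfhx3, a transcription factor at -0.60, lie before the loss of Lkb1-intact tumor 2 and were low in Lkb1-deleted tumor 1 alone. Nrg1, a ligand of ERBB receptors and the only one of these 5 genes in the first gain, stood at 0.24 in Lkb1-deleted tumor 1, while the other 7 tumors ranged between -0.13 and 0.11.

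Of 13 genes of DNA repair and replication, 8 were below -0.2 and 3 above 0.2 in Lkb1-deleted tumor 1. The shares of all chromosome 8 genes in that tumor were 68.8% and 19.5%. Cdt1, which loads the replicative helicase, had -0.55 in that tumor and -0.51 in Lkb1-intact tumor 2, and was above 0 only in Lkb1-intact tumor 3, at 0.29. Gins4, a subunit of the replicative helicase complex, lies in the gained segment and had 0.21 there and values from -0.28 to 0.086 elsewhere. Rnaseh2a and Junb share a bin and have the same values.

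**Figure D4:**
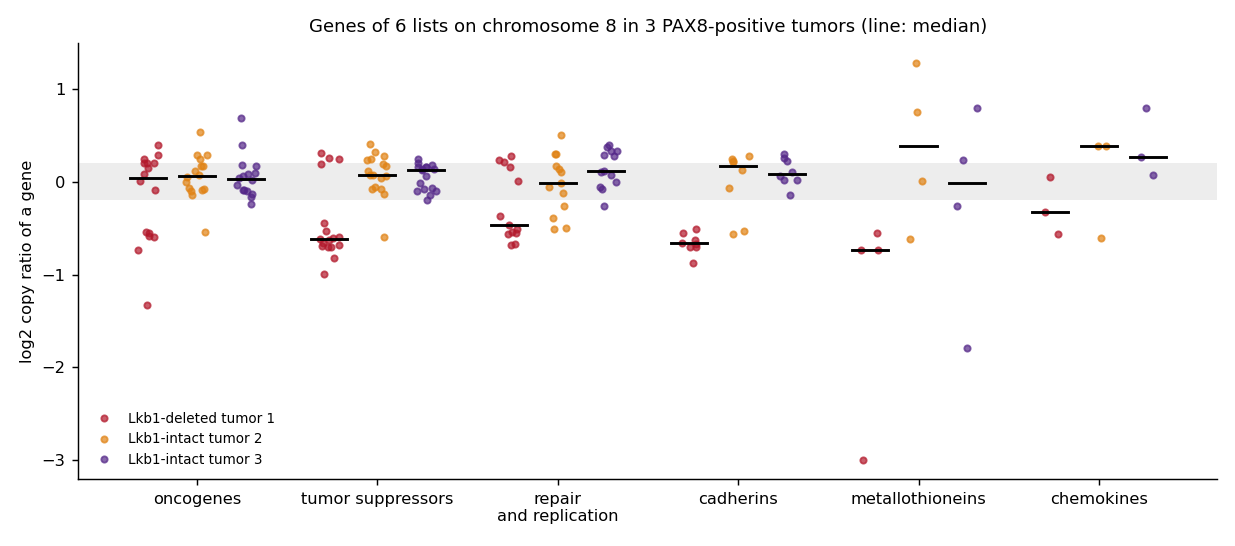
Log2 copy ratio of single genes of 6 lists (y axis) in 3 PAX8-positive tumors, 1 colour per tumor, with the median as a line and the band from -0.2 to 0.2. The cadherins and metallothioneins of Lkb1-deleted tumor 1 all lie below the band, with medians of -0.66 and -0.73. Its tumor suppressors and oncogenes fall on both sides. Metallothioneins and chemokines rest on 1 bin a gene.

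The metallothioneins Mt1, Mt2, Mt3 and Mt4 were below -0.2 in Lkb1-deleted tumor 1, at -2.99, -0.74, -0.55 and -0.73. Mt1 was below -0.2 in all 8 tumors, the highest being -0.26. Mt2 was lowest in Lkb1-deleted tumor 4, at -3.72, and highest in Lkb1-intact tumor 2, at 1.29. Each has 1 bin under 2000 bp, with the wide error given above. The chemokine Ccl17 had values on both sides of 0, the lowest being -1.52 (Lkb1-deleted tumor 2) and the highest 0.79 (Lkb1-intact tumor 3), and so did Ccl22, between -0.35 and 0.39. Cx3cl1, the third chemokine of the list, had -0.56 in Lkb1-deleted tumor 1.

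On chromosome 8, 279 of 1016 genes lay beyond 0.2 in 1 direction in 4 tumors or more, against 32.7% over the genome. Among the listed genes 2 oncogenes, 3 tumor suppressors, 3 repair genes, 3 metallothioneins, 2 chemokines and no cadherin did so. Of the 39 defensin genes with a bin, 31 did. Over the tumors in which they were measured, Defa21, Defa32, Defa20 and Defa27 had the lowest means of all listed genes, between -2.57 and -1.65, and the beta-defensins Defb4, Defb8 and Defb39 the highest, 0.62, 0.59 and 0.58. Each of these rests on 1 bin.

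The ascites library came from the mouse of Lkb1-deleted tumor 1, so its chromosome 8 can be set beside that tumor. The authors' deposited table of copy number in ascites cells lists 31 regions, of which 2 are on chromosome 8. Both carry state 4 and belong to the same group of cells, which the table names malignant and which holds 29 of the 31 regions. The listed states run from 2 to 5 without 3, and state 4 was read as a gain, which the files do not state. How the states were made from RNA is not stated in the sources at hand. The first region runs from base 33782643 to base 70302489 (36.5 Mb, 53 genes listed) and the second from base 88118769 to base 95807462 (7.69 Mb, 27 genes listed).

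The tumor DNA of the same mouse was mostly below 0 in both regions, as it was over most of the chromosome. Over the first region Lkb1-deleted tumor 1 had a mean log2 copy ratio of -0.37 ± 0.018 (SE over 709 bins). The boundary between Adam34 and Fat1 lies inside this region, with a mean of 0.27 over the 185 bins before it and -0.60 over the 524 bins after it. Over the second region, which lies wholly inside the long loss, the mean was -0.66 ± 0.026 (SE over 174 bins), and 98.3% of its bins were below 0. Over the bins of chromosome 8 outside both regions the same tumor had a mean of -0.25 and a median of -0.36, with 63.7% of bins below 0. In the other tumors the regions were nearer to 0. For the first region they lay between -0.061 (Lkb1-deleted tumor 5) and 0.20 (Lkb1-intact tumor 2), and in the second between -0.16 (Lkb1-deleted tumor 2) and 0.16 (Lkb1-intact tumor 2). With 1 ascites library there is no test of this difference.

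**Figure D5:**
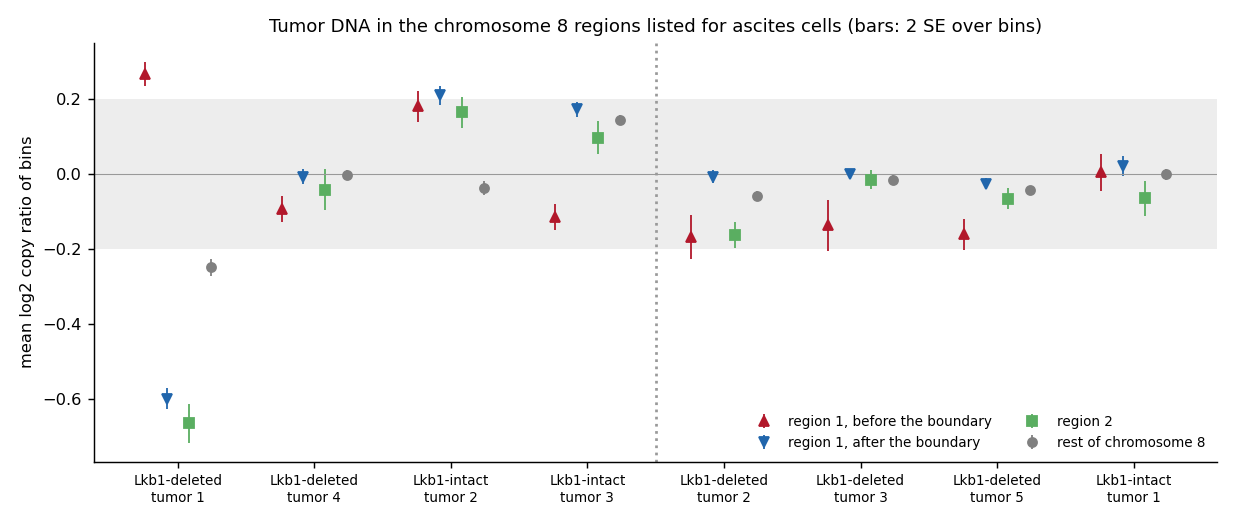
Mean log2 copy ratio of tumor DNA (y axis) in each tumor over the 2 chromosome 8 regions listed for ascites cells and over the rest of the chromosome. The first region is split at the gain-to-loss boundary of Lkb1-deleted tumor 1, bars are 2 SE over bins, and PAX8-positive tumors are left of the dotted line. In Lkb1-deleted tumor 1 the first region has 0.27 before the boundary and -0.60 after it, and the second -0.66.

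By gene, 52 of the 53 genes listed in the first region have a bin. In Lkb1-deleted tumor 1, 37 of them were below -0.2 (71.2%) and 8 above 0.2, a share near the 68.8% of all chromosome 8 genes that were below -0.2 in that tumor. In the second region 26 of 27 were below -0.2 (96.3%) and none above 0.2. The second region lies wholly inside the long loss of that tumor, so its share restates this place. In Lkb1-intact tumor 2 the genes of the first region had 3 below -0.2 and 22 above 0.2, and those of the second 2 and 15. As shares these were 5.77% and 42.3%, then 7.41% and 55.6%, against 21.2% and 37.3% of all chromosome 8 genes. In Lkb1-intact tumor 3 the genes of the regions had 5 and 12 in the first and 3 and 9 in the second. As shares these were 9.62% and 23.1%, then 11.1% and 33.3%, against 9.25% and 39.0% of all chromosome 8 genes. In the other 5 tumors 6 to 14 genes of the first region and 2 to 8 of the second were below -0.2. As shares these were 11.5% to 26.9% and 7.41% to 29.6%, against 14.3% to 24.8% of all chromosome 8 genes. Members of the gene lists there include Fat1, Ing2, which binds methylated histones, at -0.998, and Neil3, a repair glycosylase, at -0.56 in the first region. In the second they include Cyld at -0.82, Rbl2, a relative of the retinoblastoma protein, at -0.68 and Gins3, another subunit of the helicase complex, at -0.68.

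The cluster named tumor cells was checked against markers of cell types in the authors' deposited table. It lists 6 of 12 epithelial markers (Epcam, Krt7, Krt8, Krt18, Krt19 and Cldn3), and neither Cdh1 nor Pax8. It lists 9 of 10 mesothelial markers, among them Msln, Upk3b, Lrrn4 and Wt1, 1 of 7 fibroblast markers (Dcn) and 0 of 5 leukocyte markers. Krt19 is on both the epithelial and the mesothelial list, and these counts do not settle which cell type the cluster is. Mesothelial cells line the abdomen and shed into ascites, so the name given by the authors is used here only as a name. The table lists markers from 0.50 up on the average log fold change, so a gene that is not listed may still be expressed.

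Of the 572 markers of this cluster 555 could be placed in the genome, and 31 of these lie on chromosome 8 (5.59%), against 1.33% to 5.49% in the other 8 clusters and 4.78% of all genes with a bin. By the segments of Lkb1-deleted tumor 1, 8 of the 31 lie in the first gain (25.8%), 21 in the loss (67.7%) and 2 in the last gain, where these segments hold 28.5%, 69.3% and 2.21% of the protein-coding genes counted in them. The split of the markers is thus near that of the genes. The 10 highest in the authors' deposited table were Mt2 with an average natural log fold change of 2.92, Mt1 with 2.38, Cpe, a peptide-trimming enzyme, with 1.76, Gpm6a, a membrane glycoprotein and itself on the mesothelial list, with 1.72, Gcsh, of glycine cleavage, with 1.50, Wfdc1, a secreted protease inhibitor family member, with 1.40, Rhou, a small GTPase, with 1.23, Col4a1, a basement membrane collagen, with 1.19, Star, which carries cholesterol into mitochondria, with 1.18, and Smpd3, a sphingomyelinase, with 1.16. Of these 10, Col4a1 and Star lie in the first gain and the other 8 in the loss. In the DNA of Lkb1-deleted tumor 1, Cpe had -0.52, Gpm6a -0.35, Gcsh -0.68 and Smpd3 -0.74, while Wfdc1 and Rhou, with 1 bin each, had -0.25 and -0.24. Col4a1 had 0.24, but Star had -0.029 in its single bin, although it lies in the first gain. These are levels of RNA in cells of the ascites and of DNA in a solid tumor, and no test joins them.

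Lkb1-deleted tumor 1 was the shallowest over chromosome 8, at a mean of 1.10 reads per base, and Lkb1-deleted tumor 5 the deepest, at 2.16. Bin-to-bin noise on the log2 scale was lowest in Lkb1-deleted tumor 5 (SD 0.154) and highest in Lkb1-intact tumor 1 (SD 0.260). Between 0 and 4 bins per tumor had depth 0 on chromosome 8 and were left out. Profiles over the 105 windows of at least 5 bins correlated most between Lkb1-deleted tumors 2 and 5 (Pearson r = 0.71 across windows) and least between Lkb1-deleted tumor 1 and Lkb1-intact tumor 3 (r = -0.29). Windows share the library, the bins and the reference and are not independent, so these are descriptions.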

How the data were processed

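DNA of 8 tumors was sequenced at low depth. Per the submitters' processing notes, reads were handled with BWA and Picard and the build is GRCm38 (mm10), while neither the tool that made bins and copy ratios nor the reference of the ratio is given in the sources used here. Deposited tables give a log2 copy ratio and a coverage (depth) per bin, per the file headers. For ascites cells the deposited tables give a state score per region and an average log fold change per marker, taken as a natural log because the notes name Seurat 2.3.4, beside Cell Ranger. A library of control tissue was not analysed here.

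Bins of depth 0 were left out. Medians of bins were taken in 1 Mb windows, altered beyond 0.2 or -0.2, and in 5 Mb windows. Segments came from a least squares partition with at least 20 bins a segment, a penalty of 3 times the noise variance times 2 log n, and values held within 4 robust SD of a running median of 25 bins. Differences between group means were tested by enumerating all splits of the tumors (an exact permutation test, two-sided), with Benjamini-Hochberg adjustment over 20 chromosomes or 536 windows. The p-values given leave out Lkb1-deleted tumor 1, on which the chromosome was chosen. limma 3.58.1 (R 4.3.3) was an alternative. Python 3.11.15, numpy 2.4.6 and pandas 2.3.3 were used, and both the segmentation and the group test were checked on simulated data. Alternatives were window length, threshold, centring, penalty and leaving out each tumor. A gene has the median of the bins that overlap its RefSeq span, and for the 35 of 1016 genes with no such bin, the median of the bins that carry its name.

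The members and lists were chosen with earlier results of these data known. Genes named are list members past 0.2 the same way in 4 tumors or past 1 in any, at most 20 by absolute mean, genes at extreme windows and at boundaries, list members in the ascites regions and the 10 highest markers there. Of the first set, defensins beyond those named are given as counts. Some genes that this rule names are not reported here. Values had whole tumors, not bins, as replicates.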

Additional observations from a re-analysis of the deposited data

Results flagged for a closer look

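Of 21 groups of 4 or 5 tumors tested, 9 held a tumor far from the others by Dixon's rule, where chance flags about 1 group in 20. The chromosome was chosen on Lkb1-deleted tumor 1, which accounts for 7 of the 9, and no reading is made of them.

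Among the 5 Lkb1-deleted tumors, tumor 1 had a chromosome mean of -0.26, against -0.045 to -0.0031 in the other 4. Its altered share was 92.0%, against 1.79% to 6.25%. Its gained share was 30.4%, against 0% to 1.79%, and its lost share was 61.6%, against 0.893% to 4.46%. Over the interval that is lost in Lkb1-intact tumor 2 it had -0.43, against -0.015 to 0.028.

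Over the first ascites region Lkb1-deleted tumor 1 had -0.37, against -0.061 to -0.030 in the other Lkb1-deleted tumors. Over the second it had -0.66, against -0.16 to -0.016.

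Among the 4 PAX8-positive tumors, Lkb1-deleted tumor 4 had the lowest gained share on chromosome 8, 1.79%, against 25.9% to 30.4%. Among the 4 PAX8-negative tumors, Lkb1-intact tumor 1 had the highest mean over the interval lost in Lkb1-intact tumor 2, 0.059, against -0.015 to -0.0058.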

How the results depend on the processing

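The 3 segments of Lkb1-deleted tumor 1 and the loss of Lkb1-intact tumor 2 kept their direction in 7 of 7 settings, and both ends of the long loss fell on the same bins in all 7. The settings with a threshold of 0.1 or 0.3 change only the call, so they cannot move an end or a mean. The first gain, at 0.27, falls short of a threshold of 0.3, and in 3 settings it started near the defensins instead, with 483 to 486 bins and means of 0.28 to 0.29. Of 39 segments 13 were altered, against 20 of 56 with the penalty halved and 22 with the threshold at 0.1. With the penalty doubled, the gain of Lkb1-intact tumor 2 had 0.18 and both gains of Lkb1-intact tumor 3 had 0.19, and the short one had 0.24 with at least 40 bins a segment. The PAX8 difference in chromosome mean, 0.0027, was -0.0071 with 10 Mb windows, -0.0052 over bins and -0.028 with splits within the other label, and -0.045 to 0.083 leaving out 1 tumor. The Lkb1 difference in altered share, -5.06, was 2.05 with 5 Mb and with 10 Mb windows, 4.35 at a threshold of 0.3, 4.32 with splits within the other label and -22.7 to 1.79 leaving out 1 tumor. The altered, gained and lost shares by PAX8 kept their direction in 17 of 17 settings each, and leaving out 1 tumor they were 21.7 to 50.5, 17.5 to 27.0 and 4.17 to 23.8. The Lkb1 difference in chromosome mean was -0.16 to -0.081 leaving out 1 tumor. Windows with an unadjusted p under 0.05 numbered 0 with 10 Mb windows in both comparisons, and leaving out 1 tumor 0 to 4 by PAX8 and 0 to 5 by Lkb1. limma gave a PAX8 difference of 0.0027 and an Lkb1 difference of -0.13, which equal the differences of group means by construction. Both ascites regions together had -0.43 in Lkb1-deleted tumor 1, -0.51 as the median of bins, -0.39 over windows and -0.38 centred on the autosomes, and the first region had -0.37, then -0.49, -0.33 and -0.33. The cause of these changes was not tested. No paired analysis was possible because the tumor numbers only name samples. With splits within 5 tumors whose titles share their last digits, chosen after seeing the data, the PAX8 difference in mean was -0.023 and the Lkb1 difference in altered share 8.48, where 6 splits can give no p under 0.167, and no other difference turned its direction. At 1.10 to 2.16 reads per base, a gene with a single short bin has an error wider than most steps.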
